A study of Homo sapiens with 2 samples.

Results

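The hepatocyte lineage transcription factors examined here are 8 genes, namely HNF4A, HNF4G, FOXA1, FOXA2, FOXA3, CEBPA, ONECUT1 and NR5A2. They were taken by name from the deposited gene count table, and genes were kept if their reads in the 2 libraries summed to at least 20, which held for all 8 and for 17915 of 56303 genes. The study used HUH7, a cell line from a human hepatocellular carcinoma, and the 2 libraries of the study are compared. One held RNA precipitated from the lysate with an antibody against ZMAT2, a zinc-finger protein of the spliceosome (the IP), using 80% of the lysate, and the other held RNA of lysate set aside beforehand (Input, 10%). No library of a rabbit IgG precipitate, the negative control of the protocol, is among these 2. Recovery through ZMAT2 and unspecific recovery therefore cannot be told apart. The labels name no genetic change and no treatment, so both libraries stand for the same cells of 1 line. The stated aim concerned whether ZMAT2 affects hepatocellular carcinoma through splicing, and the comparison here asks how the mRNAs of these factors stood in the IP relative to Input.

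The libraries held 25047635 reads in genes (IP) and 23485789 (Input). The labelled cell type was checked against 8 hepatocyte markers, all kept, with 2387 reads (TTR) to 170426 reads (ALB) each in Input. Of 11 cholangiocyte and progenitor markers, 9 were also kept, with 9831 reads of the whole list in the IP and 12898 in Input. Of 10 immune markers 3 were kept, among them LYZ, with 8837 reads in Input and 34.0% of its exon sequence in common with a neighbour, and CD68, with 85.8% in common, while CD3E, MS4A1 and NKG7 had no read in either library. Of 13 fibroblast, stellate and endothelial markers 5 were kept, with 452 reads of the whole list in the IP and 507 in Input, and COL1A1, DCN, CDH5 and KDR had no read. With 1 library in each group there was no spread between replicates, so no p-value is given, and every difference below is one between these 2 libraries. Intervals are exact 95% intervals on reads, unless pairs are named, and cover counting error only. The reads carry no molecular identifiers, so copies of a molecule cannot be told from separate ones. The 2 mates of a pair appear to have been counted singly, so intervals on reads are too narrow.

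Hepatocyte identity is maintained by a small circuit of transcription factors that bind one another's regulatory regions and, together, those of albumin, apolipoprotein and clotting factor genes. HNF4A and HNF4G are closely related nuclear receptors, and NR5A2 (LRH-1) is a nuclear receptor of bile acid and cholesterol metabolism. The FOXA proteins are forkhead pioneer factors that open compacted chromatin, CEBPA is a basic leucine zipper factor of metabolic genes that restrains proliferation, and ONECUT1 (HNF6) acts in liver and bile duct development. Loss of HNF4A and CEBPA activity is known to accompany dedifferentiation in liver cancer.

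The members differ widely in gene structure and in the base composition around their start sites. CEBPA has a single exon and spans 2.63 kb, whereas NR5A2 has 12 exon blocks (merged exon intervals) over 149.8 kb. The start regions of these 2 genes, the highest and the lowest of the 8 in the ratio of IP to Input, follow from RefSeq (GRCh38.p14), each with 250 bases before and 50 after an annotated start, 5′ to 3′, with CG dinucleotides in capitals. The CEBPA region, chr19:33302485-33302784 on the minus strand, has 80.7% G or C and 50 CG dinucleotides. The upstream NR5A2 start, chr1:200027460-200027759 on the plus strand, has 36.7% G or C and 0 CG dinucleotides, against a median of 14 over 35116 start regions. The downstream NR5A2 start, chr1:200042341-200042640, is not printed and has 52.7% G or C and 16 CG dinucleotides. Which NR5A2 start these cells use was not tested.
CEBPA: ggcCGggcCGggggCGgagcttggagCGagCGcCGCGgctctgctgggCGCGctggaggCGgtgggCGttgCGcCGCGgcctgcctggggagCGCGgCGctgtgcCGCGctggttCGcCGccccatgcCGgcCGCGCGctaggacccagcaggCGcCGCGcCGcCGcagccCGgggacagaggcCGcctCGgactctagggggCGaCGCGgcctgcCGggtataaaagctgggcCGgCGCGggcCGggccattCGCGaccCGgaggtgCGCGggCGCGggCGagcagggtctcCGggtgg
NR5A2: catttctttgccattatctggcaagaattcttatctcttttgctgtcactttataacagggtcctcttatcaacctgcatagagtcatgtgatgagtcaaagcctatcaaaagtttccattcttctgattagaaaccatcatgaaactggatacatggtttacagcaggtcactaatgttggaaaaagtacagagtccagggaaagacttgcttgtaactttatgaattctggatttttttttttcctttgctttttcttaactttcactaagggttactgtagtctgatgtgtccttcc

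Short elements of liver factor motifs, with none for ONECUT1 or NR5A2, were searched on both strands in 8 RefSeq start regions of 6 members. HNF4A and NR5A2 had 2 regions each, and HNF4G and FOXA2 were not used here. The FOXA element TGTTTAC occurred in 1 of these 8 regions, at the downstream NR5A2 start, and in 3.42% of all 35116 start regions. The C/EBP element TTGCNNAA (10.5% of all) and the HNF4 element CAAAGTCCA (0.384% of all) occurred in 0 of the 8. TATAAA, searched on the coding strand only, lay 30 bases before the starts of CEBPA and FOXA3 and occurred in 7.33% of all. A match describes the letters of the window and does not show a bound site.

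Levels were compared between the genes as CPM per kb, that is, TMM-scaled counts relative to library size (CPM) divided by exon length in kb. In Input the order was HNF4A (26.1), CEBPA (16.2), FOXA2 (13.6), ONECUT1 (12.3), NR5A2 (8.49), FOXA1 (4.51), HNF4G (3.81) and FOXA3 (2.28 CPM per kb), an 11.4-fold range. All 8 genes took the same places in the IP, where the range was 16.1-fold. Of the 7 neighbours in the Input order, the counting intervals overlapped for FOXA2 with ONECUT1 and for FOXA1 with HNF4G and were apart for the other 5. In the IP they overlapped for HNF4A with CEBPA and for HNF4G with FOXA3. These intervals are on reads. Wider intervals on pairs were not computed for levels, so some neighbours that stand apart here may overlap on pairs. The reads of 2 opposite-strand genes inside CEBPA came to 72.4% of its reads in the IP and 73.2% in Input. If those reads are not its own, its level may be lower and its place and spacing may differ. With all its reads counted, spacing changed on both sides of CEBPA. HNF4A stood 1.61-fold above CEBPA in Input, while in the IP the levels were 34.0 and 33.8 CPM per kb. CEBPA stood 1.19-fold above FOXA2 in Input and 2.13-fold in the IP. Among 12951 protein-coding genes kept, 10.9% had a higher Input level per kb than HNF4A, 47.7% a higher one than FOXA1 and 63.1% a higher one than FOXA3. These levels divide by all merged exons of a gene, so a gene with many alternative exons reads lower than its main transcript would.

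**Figure D1:**
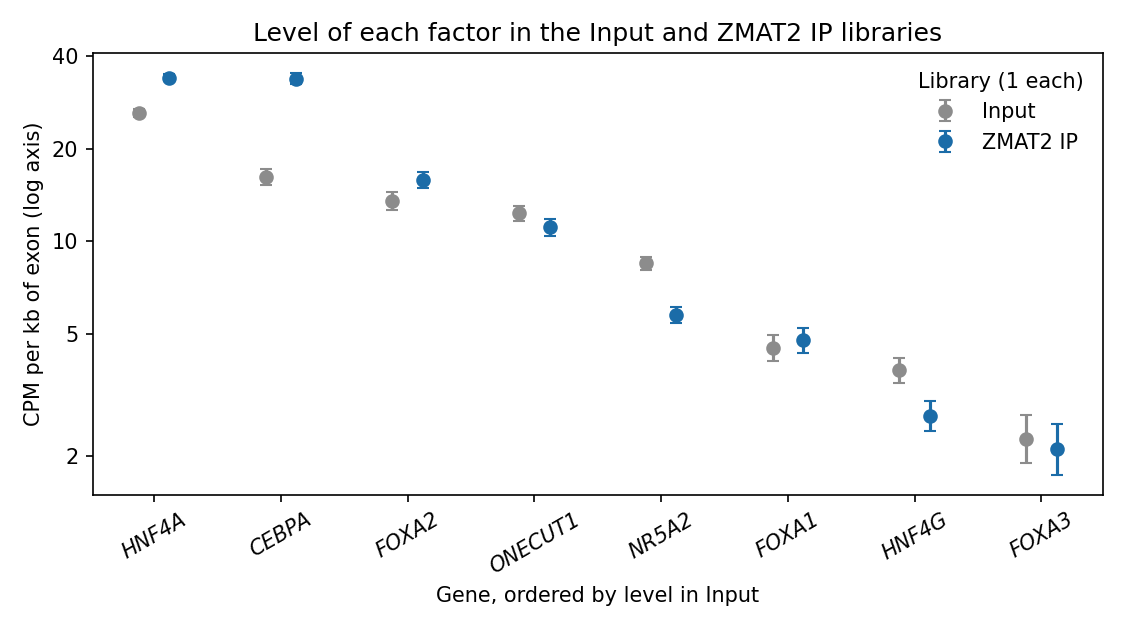
Level of the 8 factors in Input (grey) and the ZMAT2 IP (blue), in CPM per kb of exon on a log axis, with exact 95% counting intervals on reads and 1 library each. The order is the same in both libraries, and CEBPA reaches the level of HNF4A in the IP (33.8 and 34.0).

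Read counts of the IP were set against those of Input as a log2 ratio after TMM scaling, with a prior count of 0.5. A gene was called higher or lower when it differed by at least 2-fold and its interval excluded 0. CEBPA alone among the 8 was called higher and 0 of 8 were called lower, while 7.41% of all 17915 kept genes were called higher and 6.96% lower. Of the protein-coding genes kept, 6.71% were called higher and 4.84% lower. With 8 genes, 1 call is a share near this background and not a result about the group. At a 1.5-fold threshold the members' counts were still 1 higher and 0 lower, where 17.8% of all kept genes were called higher and 16% lower. Their median log2 ratio was -0.01, against 0.01 over all genes kept, and 4 of 8 lay above that median. With library totals in place of TMM, the median of all genes moved by -0.106, 5.71% of genes were called higher and 8.71% lower, higher calls made up 39.6% of all calls in place of 51.6%, and 0 of the 8 members were called.

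CEBPA, at 33299934 to 33302564 on chromosome 19 (GRCh38, minus strand), had 2148 IP reads and 1039 Input reads, or 89.0 CPM (85.2 to 92.8) and 42.7 CPM (40.1 to 45.3). The IP value was above that of Input by a log2 ratio of 1.06 (0.95 to 1.17), or 2.09-fold, and 5.81% of protein-coding genes had a higher ratio. With library totals the log2 ratio was 0.95 (0.85 to 1.06), which ended the call, so the gene lies at the 2-fold threshold and not clearly beyond it. Of its single exon, 43.4% of bases lie in 2 genes of the opposite strand, CTD-2540B15.11 and CTD-2540B15.7, which lie wholly inside it. CTD-2540B15.11 had 1023 IP reads and 526 Input reads (log2 ratio 0.97, 0.82 to 1.13). CTD-2540B15.7 had 533 and 235 reads (1.19, 0.97 to 1.42). Both inner genes thus had ratios close to that of CEBPA, and their reads came to 72.4% of its reads in the IP and 73.2% in Input. If each of these reads was also counted for CEBPA, 592 IP reads and 278 Input reads remain in the other bases, a log2 ratio of 1.10 (0.90 to 1.31). Whether the shared reads came from CEBPA or from the opposite strand cannot be told from counts that may not use strand. The divergent transcript CEBPA-DT, which starts beside CEBPA on the opposite strand and shares no exon base with it, had 405 IP reads and 444 Input reads (log2 ratio -0.12, -0.32 to 0.08).

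The nuclear receptors of the group lay on both sides of Input. HNF4A, at 44355700 to 44434596 on chromosome 20 (plus strand), had 6009 IP reads and 4649 Input reads, or 248.8 and 190.8 CPM. The IP value was the higher by a log2 ratio of 0.38 (0.33 to 0.44), or 1.30-fold. HNF4G, at 75407914 to 75566843 on chromosome 8 (plus strand), had 314 and 446 reads, or 13.0 and 18.3 CPM. It was lower in the IP by a log2 ratio of -0.49 (-0.71 to -0.28), that is 1.41-fold. NR5A2, at 200027602 to 200177424 on chromosome 1 (plus strand), had 1051 and 1563 reads, or 43.5 and 64.2 CPM. Its log2 ratio was -0.56 (-0.67 to -0.45), 1.47-fold lower in the IP and the lowest of the 8, and 83.0% of protein-coding genes had a higher ratio. None of the 3 shares exon bases with another gene, and none reached 2-fold.

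HNF4A and HNF4G could also be compared within each library, where scaling between libraries plays no part. There were 19.1 HNF4A reads for each HNF4G read in the IP and 10.4 in Input, a ratio of 1.84 between the libraries (1.58 to 2.14, and 1.48 to 2.28 with 2 mates counted as 1). Per kb of exon, HNF4A stood 12.6-fold above HNF4G in the IP and 6.85-fold in Input. The paralogs thus differed from each other in how they stood in the 2 libraries by more than counting error.

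The 3 FOXA genes stayed close to Input. FOXA1, at 37589984 to 37596059 on chromosome 14 (minus strand), had 459 IP reads and 437 Input reads, or 19.0 and 17.9 CPM, and a log2 ratio of 0.08 (-0.11 to 0.28), which was -0.02 with library totals. FOXA2, at 22581005 to 22585455 on chromosome 20 (minus strand), had 997 and 861 reads, or 41.3 and 35.3 CPM, and a log2 ratio of 0.22 (0.09 to 0.36). FOXA3, at 45863989 to 45873797 on chromosome 19 (plus strand), had 112 and 122 reads, or 4.64 and 5.01 CPM, and a log2 ratio of -0.11 (-0.49 to 0.27). The intervals of FOXA1 and FOXA3 included 0, so no difference from Input was detectable for them at this depth. That of FOXA2 lay above 0 with TMM but included 0 with library totals (log2 ratio 0.12, -0.01 to 0.25). Within a library, FOXA1 had 0.460 reads for each FOXA2 read in the IP and 0.508 in Input, a ratio of 0.907 between the libraries (0.771 to 1.07). The corresponding ratio was 1.14 (0.849 to 1.54) for FOXA1 over FOXA3 and 1.26 (0.952 to 1.67) for FOXA2 over FOXA3. All 3 intervals included 1, so no difference among the FOXA genes was detectable at this depth.

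ONECUT1, at 52756989 to 52791078 on chromosome 15 (minus strand), had 1034 IP reads and 1157 Input reads, or 42.8 and 47.5 CPM. Its log2 ratio was -0.15 (-0.27 to -0.03), and counted in pairs of mates the interval included 0 (-0.32 to 0.03). In the order of log2 ratios over the 8 genes, CEBPA stood apart from HNF4A, and ONECUT1 from HNF4G. The other 5 of the 7 neighbours had overlapping intervals. Counted in pairs, only CEBPA stood apart from its neighbour.

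**Figure D2:**
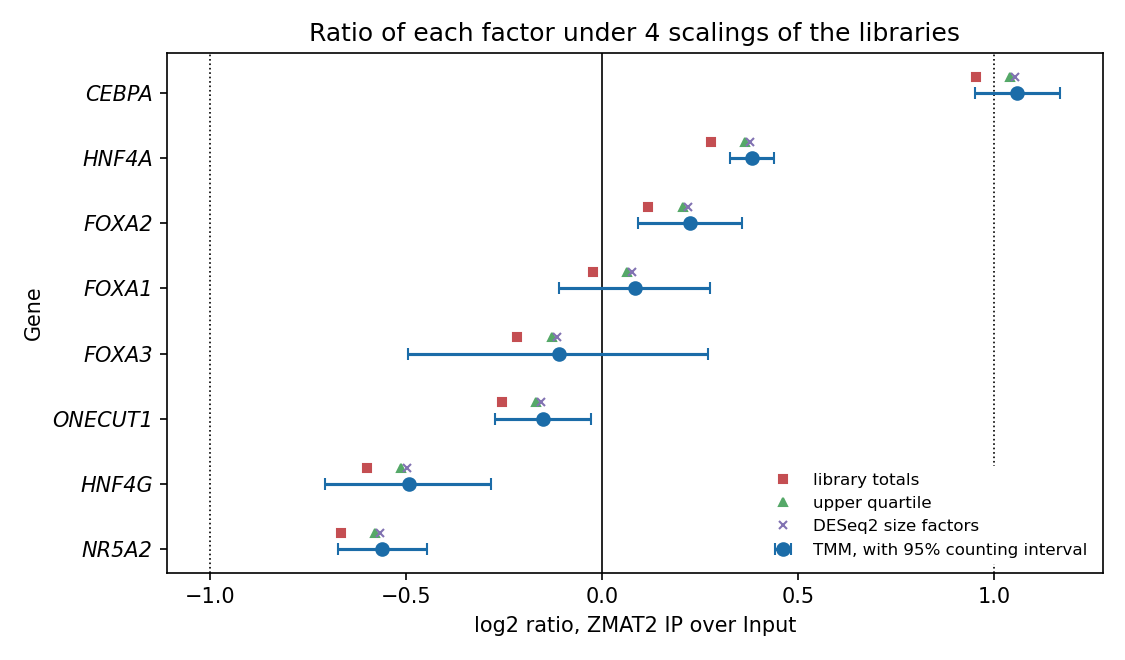
log2 ratio of IP over Input for each factor under 4 scalings of the libraries. Blue points with bars are TMM with exact 95% counting intervals, other symbols are the same ratio under other scalings, and dotted lines mark 2-fold. CEBPA sits at the 2-fold line, at 1.06 with TMM and 0.95 with library totals, and the other 7 lie within it.

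The makeup of the summed reads of the 8 genes can be given without any scaling between libraries. Together they had 12124 IP reads and 10274 Input reads. CEBPA made up 17.7% of these in the IP (exact Clopper-Pearson interval 17.0 to 18.4) and 10.1% in Input (9.54 to 10.7). Its reads here include those that may belong to the opposite strand. NR5A2 made up 8.67% (8.17 to 9.18) and 15.2% (14.5 to 15.9). HNF4A held the largest share in both libraries, at 49.6% (48.7 to 50.5) and 45.2% (44.3 to 46.2). The shares of FOXA2 were 8.22% in the IP and 8.38% in Input, with overlapping intervals. A share of recovered RNA can rise because more of a transcript is present or because less of the others is, and these cannot be told apart.

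The ratios of the 8 genes ran broadly with gene span. The 4 members that span under 10 kb (CEBPA, FOXA2, FOXA1 and FOXA3) had log2 ratios of -0.11 to 1.06, and the 4 longer ones (ONECUT1, HNF4A, NR5A2 and HNF4G) had log2 ratios of -0.56 to 0.38, so the ranges overlap. Spearman's rho between log2 ratio and span was -0.74 over the 8 genes, which share both libraries, and -0.20 over the 12951 protein-coding genes kept. The median log2 ratio over nuclear protein-coding genes was 0.23 for the 1034 genes under 5 kb, 0.27 for the 1332 genes of 5 to 10 kb and -0.14 for the 2614 genes of at least 100 kb. CEBPA lay above the middle 50% of its span class (-0.12 to 0.62). HNF4A, with a log2 ratio of 0.38, lay just above that of the 30 to 100 kb class (-0.48 to 0.35). NR5A2 and HNF4G lay just below that of the longest class (-0.49 to 0.27), HNF4G by less than 0.01. The FOXA genes and ONECUT1 lay within theirs.

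**Figure D3:**
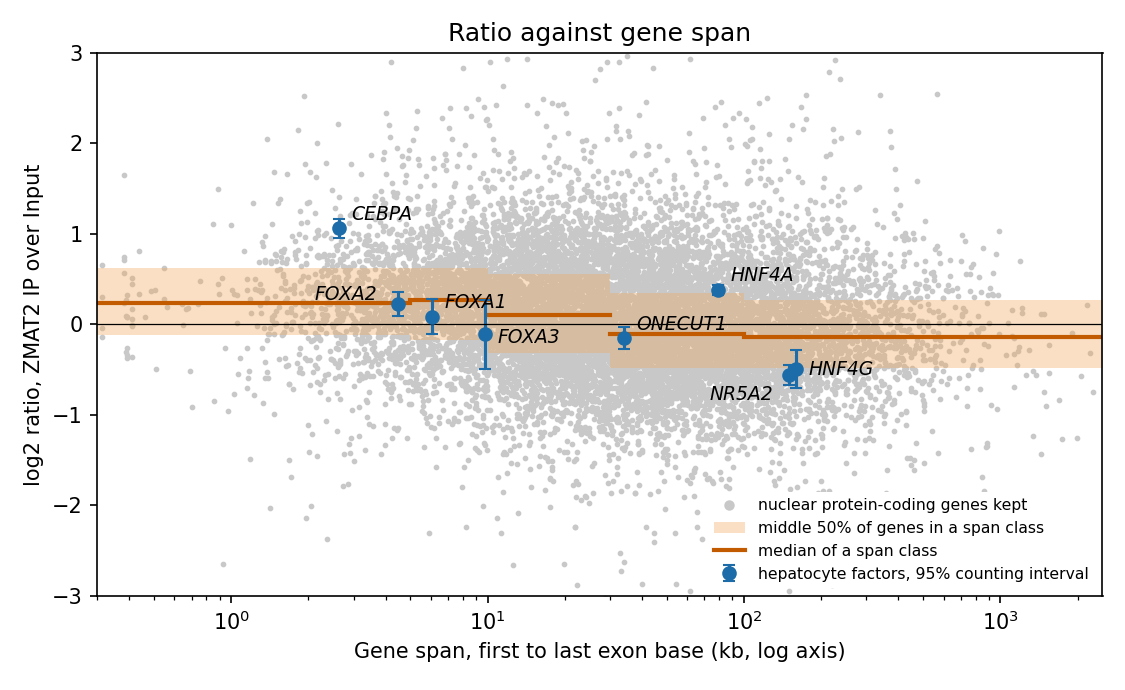
log2 ratio of IP over Input against gene span in kb (log axis) for nuclear protein-coding genes (grey), with the median and middle 50% of each span class (orange) and the 8 factors with 95% counting intervals (blue). The class medians are 0.23 and 0.27 for the 2 shortest classes and -0.10 and -0.14 for the 2 longest, and CEBPA and HNF4A lie above the orange band of their class. The 50 genes outside the axes are not drawn.

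Base composition at the start site moved with the ratio too. Over the 10684 nuclear protein-coding genes with a RefSeq start region, the median log2 ratio was -0.24 where that region held under 40% G or C (196 genes) and 0.12 where it held at least 70% (2985 genes). The rank correlation across genes was 0.15 with this GC content, and GC content and span were nearly unrelated (rho -0.02). No start region of FOXA2 or HNF4G was used. Among the other members, CEBPA (80.7%), FOXA3 (76.3%), ONECUT1 (75%) and FOXA1 (69.3%) had the GC-rich starts. HNF4A had 60% and 57.7% at its 2 starts, and NR5A2 36.7% and 52.7%. FOXA3 and ONECUT1 thus had GC-rich starts and log2 ratios of -0.11 and -0.15. The part of span, base composition or exon number in the ratios of single members was not tested.

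Other genes were taken from lists by family and role, with genes of the lists kept under the same minimum. Of 26 other liver factors, all kept, 0 were called in either direction, and their median log2 ratio was 0.19. Over all kept genes, 7.41% were called higher and 6.96% lower. XBP1, a factor of the unfolded protein response, had the most, with 12605 IP reads and 11014 Input reads, at a log2 ratio of 0.21 (0.17 to 0.24). PROX1, a homeobox factor of hepatocyte development, had 4388 and 6500 reads and a log2 ratio of -0.55 (-0.61 to -0.50).

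Among the other 45 nuclear receptors, 34 were kept, 4 were called higher and 0 lower, and the median log2 ratio was 0.24. These few calls stand beside 7.41% higher and 6.96% lower over all kept genes and are not read as a result about the receptors. NR1H4, the bile acid receptor FXR, had the most, with 4150 IP reads and 5031 Input reads, at a log2 ratio of -0.27 (-0.32 to -0.21). NR2C2, an orphan receptor with 11.4% of exon bases shared, followed with 2903 and 3199 reads and a log2 ratio of -0.13 (-0.20 to -0.05). NR2F6, an orphan receptor that shares 8.26% of its exon bases, was called higher, with 1383 and 439 reads and a log2 ratio of 1.67 (1.51 to 1.83). NR0B2, the corepressor SHP, which lacks a DNA-binding domain and is a target of FXR, had 73 and 26 reads and a log2 ratio of 1.48 (0.84 to 2.21). The retinoic acid receptor genes RARB, at 142 and 71 reads, and RARG, at 20 and 6, had log2 ratios of 1.01 (0.59 to 1.44) and 1.67 (0.38 to 3.36). Counted in pairs, the interval of RARG included 0.

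The genes listed with the FOXA genes, CEBPA and ONECUT1 by family or symbol also lay on both sides of Input. Of 41 other forkhead genes 19 were kept, with 2 higher, 0 lower and a median log2 ratio of 0.09. The shares over all kept genes were 7.41% higher and 6.96% lower. FOXP4, with 871 IP reads and 352 Input reads, had a log2 ratio of 1.32 (1.14 to 1.5). FOXO6 had 20 and 0 reads, which is 6.73-fold higher in the IP if Input is set to a floor of 3 reads. That value takes the 20 reads as exact and is not a lower bound. The lower bound of the counting interval was a log2 ratio of 2.32, or 1.18 in pairs. The cell cycle factor FOXM1, which had the most reads, stood at 0.29 (0.21 to 0.37) with 15.9% of exon bases shared, and FOXN3 at -0.63 (-0.74 to -0.53) with 10.1%.

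Of the 8 other genes on the C/EBP and ONECUT list 6 were kept, 1 of them higher and 0 lower, with a median log2 ratio of 0.22. With so few genes, 1 call is not a result about the list, beside 7.41% called higher over all kept genes. CEBPD, the called gene, had 234 and 114 reads and a log2 ratio of 1.05 (0.72 to 1.39). CEBPG had 3805 and 5303 reads and a log2 ratio of -0.47 (-0.53 to -0.41). CEBPZ, which shares the C/EBP symbol without being a family member and has 23.2% of exon bases shared, stood at -0.10 (-0.19 to -0.01). Counted in pairs, its interval included 0 (-0.23 to 0.03). ONECUT2, the paralog of ONECUT1 and chosen after its value was seen, had 1167 and 1970 reads and a log2 ratio of -0.74 (-0.85 to -0.64). Among the kept genes of the transcription factor lists, CEBPD and RARB had the log2 ratios nearest to that of CEBPA, differing by 0.01 and 0.05 over these 2 libraries. Both were picked for this nearness, so the small differences are not a result about them.

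The calls among nuclear receptor coregulators and target genes of the members stand beside 7.41% of all kept genes called higher and 6.96% called lower. Of 19 nuclear receptor coregulators 1 was higher and 1 lower, with a median log2 ratio of -0.15. These were the paralogous coactivators PPARGC1B, with 340 IP reads and 142 Input reads (log2 ratio 1.27, 0.99 to 1.57), and PPARGC1A, with 34 and 79 (-1.19, -1.83 to -0.61). The corepressor NCOR1 had the most reads and a log2 ratio of 0.15 (0.11 to 0.20).

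Of 42 hepatocyte genes known to be driven by the members, 34 were kept, with 3 higher, 0 lower and a median log2 ratio of -0.01. The list shares NR0B2 and 1 other gene with those above. The called genes named here had few reads. The urea cycle gene OTC had 26 IP reads and 5 Input reads (2.28, 0.99 to 4.13), and another was NR0B2. ALB and APOB, with the most reads, stood at -0.53 (-0.54 to -0.52) and -0.69 (-0.71 to -0.68). CYP7A1, CYP3A4 and F9 had no read in either library, which allows up to 3 reads, or 0.124 CPM (IP) and 0.123 CPM (Input).

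**Figure D4:**
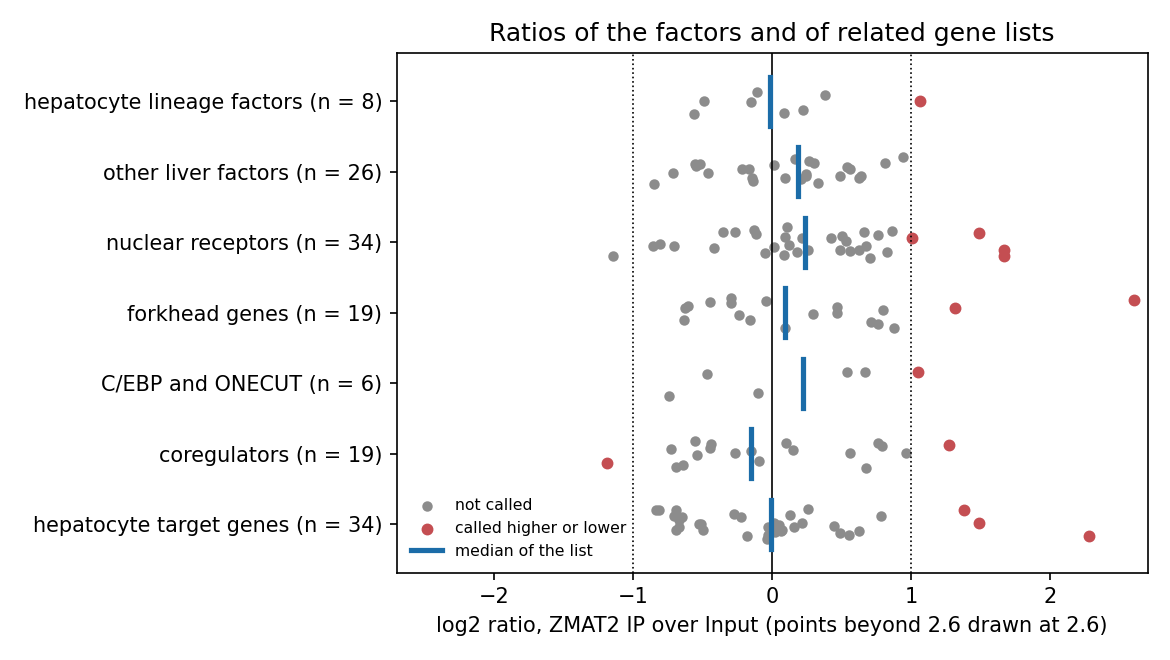
log2 ratio of IP over Input for the kept genes of each list, with the list's median (blue bar), called genes in red and dotted lines at 2-fold. FOXO6, with 0 reads in Input, is drawn at the edge. The hepatocyte factors are centred at -0.01 and lie between -0.56 and 1.06.

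Factors of other lineages were mostly under the read minimum. Of 26 such genes 7 were kept, 11 had no read in either library, and 0 of the 7 were called, with a median log2 ratio of 0.18. PAX6, a factor of eye and pancreas, had 360 IP reads and 536 Input reads (log2 ratio -0.56, -0.76 to -0.37), and CDX2, a factor of the intestine, had 419 and 363 (0.22, 0.01 to 0.43). Of 11 cholangiocyte and progenitor markers 9 were kept, with 0 higher and 2 lower. KRT7 had no read, whereas KRT19 had 1309 IP reads and 717 Input reads and EPCAM had 506 and 626, and neither was called. The calls in these lists stand beside 7.41% higher and 6.96% lower over all kept genes. CD24 had 2592 IP reads and 5561 Input reads (-1.09, -1.16 to -1.02), and SPP1 had 18 and 46 (-1.32, -2.21 to -0.53). SOX9, with the second most reads of these markers, stood at 0.24 (0.17 to 0.32). The immune marker CD14 was called higher on 70 and 32 reads (1.13, 0.52 to 1.79), and PECAM1 and PDGFRB, with the most reads among the stromal and endothelial markers, were not called.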

How the data were processed

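RNA was measured in 1 IP and 1 Input library of HUH7 cells, grouped by their titles. The authors deposited raw read counts, 1 row per gene with its exon positions and exon length, per the file headers. Build GRCh38, STAR 2.5.3a, fastp 0.23.4 and edgeR 3.12.1 are listed in the submitters' processing notes. How reads were counted, and with which annotation, is not given in the sources used here. Among counts of 1 to 6 reads, 77.9% (IP) and 67.1% (Input) were even, so mates of a pair appear to have been counted singly. Intervals on pairs take 2 reads as 1.

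From the deposited counts, TMM factors were fitted over the 17915 genes whose counts summed to 20 reads or more (edgeR 4.0.16 in R 4.3.3). The log2 ratio (prior count 0.5) has an exact Clopper-Pearson 95% interval. Ratios between 2 genes have exact conditional intervals (scipy 1.17.1). No test was possible with 1 library per group. The ratio and call steps were tested on simulated data, in which reads were drawn independently of one another and not as pairs. Gene names and biotypes came from RefSeq (GRCh38.p14), with 33448 names matched by symbol and place and 1806 by an older symbol. Shared exon bases, on either strand, came from the deposited coordinates. Alternatives were library totals, upper quartile, DESeq2 1.42.0 size factors, TMM without mitochondrial genes, other read minimums, a prior count of 2, a 1.5-fold threshold and genes with little shared exon sequence. Named genes are all 8 members and, of each list, the called genes (at most the 4 with the most reads), the 2 with the most reads and the 2 nearest in ratio to a called member. Some genes that this rule takes are not reported here. The members and lists were chosen with earlier results of these data known.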

Additional observations from a re-analysis of the deposited data

How the results depend on the processing

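No paired analysis was possible because each group held 1 library. The count of members called higher was 1 and became 0 with library totals, where CEBPA had a log2 ratio of 0.95, and 0 over genes that share under 5% of their exon bases, because that setting leaves CEBPA out. It was 1 under the other 9 alternatives, and the count called lower was 0 under all 11. HNF4A moved to 0.28 with library totals, below its interval, and kept its sign. FOXA1 lay between -0.02 and 0.13 over the alternatives, and the other 7 members kept their sign under all of those in which they were measured. The median of the members was -0.01, and ran from -0.12 with library totals to 0.23 at a minimum of 1000 reads, which leaves 5 members. Without CEBPA, an alternative chosen after seeing the data, it was -0.11. Over all genes, the 1328 higher and 1247 lower calls became 761 and 582 at a minimum of 100 reads, 329 and 191 at 1000, 2004 and 2013 with no minimum, and 3196 and 2868 at 1.5-fold. Depth limits FOXA3 most, with 234 reads in both libraries together.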
